A study of Mus musculus with 4 samples.

Results

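The genes described here are 10 members of the IL-6, IL-10 and IL-12 cytokine families, chosen by name. They are the ligand genes Il6, Il10, Il12a, Il12b, Il23a and Il27 and the receptor genes Il6ra, Il6st, Il10ra and Il10rb. All 10 were found in the deposited RNA-seq table, each on a locus of its own, among 23735 loci in all. The table held 4 libraries of cultured peritoneal macrophages from C57BL/6 mice 6 weeks old. The Ch25h_KO group (genotype ApoE-/-/Ch25h-/-) and the Ch25h_WT group (genotype ApoE-/-/Ch25h+/+) had 2 libraries each, so every animal was labelled as lacking apolipoprotein E, and the groups differed by label only at Ch25h, the gene of the enzyme that makes 25-hydroxycholesterol. Both groups had received 3% thioglycolate, a sterile irritant that draws macrophages into the peritoneal cavity, 3 days before collection. The study names 12 mice per group and biological duplicates; whether a library pooled several animals is not stated in the labels. The p-values therefore rest on the scatter among 4 libraries, some of which may be technical.

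IL-6 signals through its own receptor chain, encoded by Il6ra, and a chain shared by its whole family, encoded by Il6st. IL-10 binds a ligand-specific chain (Il10ra) and a shared chain (Il10rb), and in macrophages it restrains inflammatory genes; both cytokines act mainly through the transcription factor STAT3. IL-12, IL-23 and IL-27 are heterodimers: Il12b encodes the subunit shared by IL-12 (with Il12a) and IL-23 (with Il23a), and the product of Il27 pairs with that of Ebi3. Macrophages make these cytokines when pattern-recognition receptors are engaged, and IL-12 and IL-23 also depend on stimulus and time in culture.

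The labels were checked first. Ch25h was at 4.25 and 5.53 FPKM (fragments per kilobase of transcript, scaled to library depth) in the Ch25h_KO libraries, against 63.3 and 65.3 FPKM in the Ch25h_WT libraries. Apoe was at 3683 and 3373 FPKM in the Ch25h_KO libraries, against 614 and 610 FPKM in the Ch25h_WT libraries (limma adjusted p = 0.00127), although both groups carry the same ApoE-/- label, so the groups differed in this transcript as well. Effects of Ch25h and of whatever separates the groups at Apoe cannot be told apart. The macrophage gene Lyz2 lay between 19566 and 20537 FPKM. Implied depth was 9420000 to 12200000 fragments per library.

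Among the ligands, Il6, Il10 and Il27 were higher in both Ch25h_KO libraries than in either Ch25h_WT library, by 1.27 to 1.69 times in mean FPKM. The 4 receptor genes lay within 1.07 times of each other between the groups. The subunit genes Il12a, Il12b and Il23a stayed near or below 1 FPKM in every library. None of the 7 members whose mean reached 1 FPKM passed the adjusted threshold (limma, Benjamini-Hochberg adjusted p under 0.05 over 10074 loci), which 0.437% of all loci tested did. At an unadjusted p under 0.05 there were 3 of 7 (Il6, Il10 and Il27), where 20.9% of all loci tested were; those 3 were all higher in Ch25h_KO, as were 9.38% of all loci tested.

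**Figure D1:**
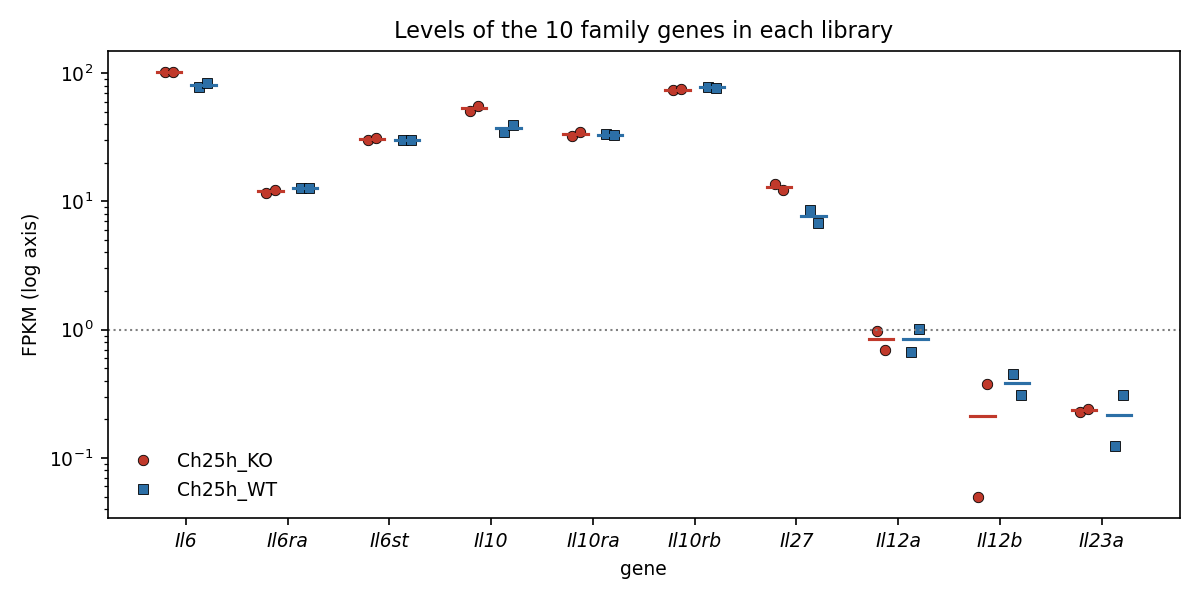
FPKM of the 10 family genes in each library on a log axis, with Ch25h_KO as red circles, Ch25h_WT as blue squares and a bar at each group mean (n = 2 libraries). The dotted line marks 1 FPKM, the minimum mean for testing; Il6, Il10 and Il27 stand apart between groups, and Il12a, Il12b and Il23a lie at or below 1.01 FPKM.

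Il6, the gene of the main inducer of the acute phase response, was at 102 and 102 FPKM in the Ch25h_KO libraries, against 77.3 and 83.0 FPKM in the Ch25h_WT libraries. Both Ch25h_KO values lay above both Ch25h_WT values. Its difference in log2(FPKM + 1) was 0.35 (95% interval 0.19 to 0.51, SE 0.0604, limma adjusted p = 0.102). By level Il6 held rank 747 and 737 among loci in the Ch25h_KO libraries and rank 969 and 907 in the Ch25h_WT libraries, which made it the family member with the highest mean (91.2 FPKM over the 4 libraries).

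Il10, the gene of the main anti-inflammatory cytokine of macrophages, was at 50.8 and 55.8 FPKM in the Ch25h_KO libraries, against 34.6 and 39.5 FPKM in the Ch25h_WT libraries. The groups did not overlap, and the libraries within each group were about 5 FPKM apart. The difference was 0.51 in log2(FPKM + 1) (95% interval 0.28 to 0.75, SE 0.0904, limma adjusted p = 0.104). B cells, which can also make IL-10, were present. The 7 measured of 8 B cell markers summed to 322 and 338 FPKM in Ch25h_KO, against 356 and 360 FPKM in Ch25h_WT. Of the 7, 2 were above 0 in the difference and 5 below, with 1 higher and 2 lower at an unadjusted p under 0.05. The lower ones included Cd79a, at 114 and 118 FPKM in Ch25h_KO, against 127 and 124 FPKM in Ch25h_WT. The 2 higher were Blk and Pax5. Blk was at 19.5 and 20.4 FPKM in Ch25h_KO, against 16.8 and 17.6 FPKM in Ch25h_WT. Pax5 was at 6.43 and 5.95 FPKM in Ch25h_KO, against 3.79 and 6.26 FPKM in Ch25h_WT. In bulk RNA, fewer cells of a type and less RNA per cell cannot be told apart, and the part of B cells in the Il10 values was not tested.

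Il27 encodes the subunit particular to IL-27. It was at 13.7 and 12.3 FPKM in the Ch25h_KO libraries, against 8.58 and 6.79 FPKM in the Ch25h_WT libraries, and the groups did not overlap. Its difference in log2(FPKM + 1) was 0.69 (95% interval 0.38 to 1.01, SE 0.12, limma adjusted p = 0.102), with the widest interval of the 7 members tested. Its partner Ebi3 was at 26.3 and 26.4 FPKM in the Ch25h_KO libraries, against 21.4 and 21.6 FPKM in the Ch25h_WT libraries (difference 0.28, 95% interval 0.15 to 0.42, limma adjusted p = 0.109). The FPKM ratio of Il27 to Ebi3 was 0.521 and 0.464 in Ch25h_KO, against 0.401 and 0.314 in Ch25h_WT. The ratio was higher in both Ch25h_KO libraries (two-sided exact permutation p = 0.333, the smallest that 2 against 2 libraries can give). Il27 was below Ebi3 in all 4 libraries.

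Upstream sequence is shown for Il6, the ligand gene with the highest level, for Ebi3, whose partner is Il27, and for Il12b, a ligand gene with few fragments. Windows of 250 bases before the transcription start were read from RefSeq (GRCm38.p6), another build than the mm9 of the deposited values; 5 of the 10 members were in that table, and Il10, Il10ra, Il10rb, Il23a and Il27 were not. Each window is printed 5′ to 3′ on the strand of the gene, and capitals mark matches on either strand to the motifs listed after the sequences. Il6 lies at chr5:30012864-30013113, Ebi3 at chr17:55952373-55952622 and Il12b at chr11:44399813-44400062, all on the plus strand.
Il6: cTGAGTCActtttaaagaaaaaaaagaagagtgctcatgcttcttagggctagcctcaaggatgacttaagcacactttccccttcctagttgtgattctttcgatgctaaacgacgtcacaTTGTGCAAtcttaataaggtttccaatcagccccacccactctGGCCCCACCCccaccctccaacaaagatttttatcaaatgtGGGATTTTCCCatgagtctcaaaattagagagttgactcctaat
Ebi3: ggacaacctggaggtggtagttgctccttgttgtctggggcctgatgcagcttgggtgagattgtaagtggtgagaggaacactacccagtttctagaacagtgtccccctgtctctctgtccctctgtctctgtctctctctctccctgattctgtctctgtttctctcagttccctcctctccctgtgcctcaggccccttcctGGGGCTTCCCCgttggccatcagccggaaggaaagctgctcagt
Il12b: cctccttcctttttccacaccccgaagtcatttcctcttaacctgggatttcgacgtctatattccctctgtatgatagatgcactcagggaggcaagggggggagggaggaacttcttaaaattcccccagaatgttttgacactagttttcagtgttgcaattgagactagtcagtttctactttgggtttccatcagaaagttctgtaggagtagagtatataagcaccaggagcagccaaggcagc

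The motifs searched were NF-kB (GGG, any 5 bases, CC), C/EBP (TTGNGNAA), AP-1 (TGANTCA), IRF (GAAA, any 2 bases, GAAA), STAT (TTCNNNGAA) and the LXR direct repeat (AGGTCA, any 4 bases, AGGTCA), on both strands and with overlapping matches kept. The Il6 window held AP-1 (249 to 243 bases before the start), C/EBP (128 to 121 bases) and 3 NF-kB matches, 2 of which overlap on opposite strands at 44 to 34 bases before the start. The Ebi3 window held NF-kB matches alone, overlapping at 44 to 34 bases before the start, and the Il12b window held no match to any of the 6. Of 32851 windows of the same length, 45.8% held the NF-kB letters, 11.7% C/EBP, 6.75% AP-1, 2.98% IRF, 7.02% STAT and 0.0152% the LXR repeat. A match is a description of letters, and the NF-kB pattern as written is loose enough to occur in nearly as many windows as not. Likewise, a window without a match to these fixed letters, such as that of Il12b, may still hold sites for the same factors.

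The subunits of IL-12 and IL-23 were barely detected. Il12a was at 0.980 and 0.699 FPKM in the Ch25h_KO libraries, against 0.673 and 1.01 FPKM in the Ch25h_WT libraries. Il12b was at 0.05 and 0.374 FPKM in the Ch25h_KO libraries, against 0.453 and 0.309 FPKM in the Ch25h_WT libraries. Il23a was at 0.227 and 0.242 FPKM in the Ch25h_KO libraries, against 0.124 and 0.311 FPKM in the Ch25h_WT libraries. The groups overlapped for all 3 genes, and none had the mean of 1 FPKM needed for the test.

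Low FPKM values in this table fall on whole multiples of what 1 fragment is worth, which allows the number of fragments behind them to be read. Il12b stood for 1 and 7 fragments in the Ch25h_KO libraries, against 11 and 6 in the Ch25h_WT libraries. Il23a stood for 3 and 3 fragments in Ch25h_KO, against 2 and 4 in Ch25h_WT. Transcript lengths gave like numbers for both genes. The spread between the Ch25h_KO libraries for Il12b was thus as wide as the spread between the groups. Summed over libraries, Il12b had 8 fragments in Ch25h_KO (exact Poisson 95% interval 3.45 to 15.8) and 17 in Ch25h_WT (9.90 to 27.2), and the intervals, which cover counting error only, overlap. Il12a values were in the proportion of 6 and 4 in Ch25h_KO to 5 and 6 in Ch25h_WT; its longest transcript would imply 12.9 and 8.58 fragments in Ch25h_KO, against 10.7 and 12.9 in Ch25h_WT. A difference between groups in these 3 genes was not tested for. Overlap of the intervals does not show that there was none, and the fragments are few.

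**Figure D2:**
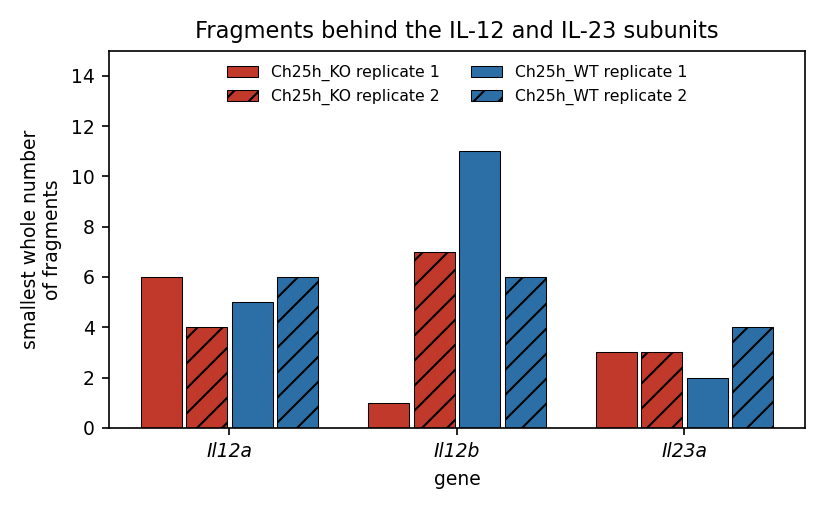
Smallest whole number of fragments that accounts for the FPKM of Il12a, Il12b and Il23a in each library; red bars are Ch25h_KO, blue bars Ch25h_WT, and hatching marks replicate 2. No bar exceeds 11 fragments, and Il12b ranges from 1 to 7 within Ch25h_KO alone.

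Because Il12b is shared by both heterodimers, its level was set beside those of its partners. The FPKM ratio of Il12b to Il23a was 0.221 and 1.54 in Ch25h_KO, against 3.64 and 0.992 in Ch25h_WT. The ratio to Il12a was 0.0510 and 0.535 in Ch25h_KO, against 0.673 and 0.306 in Ch25h_WT. Both ratios overlap between groups and rest on so few fragments that no order of the partners can be read from them.

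The receptor genes were close between the groups. Il6ra, the ligand-binding chain for IL-6, was at 11.6 and 12.3 FPKM in the Ch25h_KO libraries, against 12.8 and 12.8 FPKM in the Ch25h_WT libraries (difference -0.09, 95% interval -0.24 to 0.06, limma adjusted p = 0.419). Il6st, the signalling chain of the whole IL-6 family, was at 30.0 and 31.2 FPKM in the Ch25h_KO libraries, against 30.0 and 30.0 FPKM in the Ch25h_WT libraries (difference 0.03, 95% interval -0.11 to 0.17, limma adjusted p = 0.791). Il6ra was slightly lower and Il6st equal or slightly higher in Ch25h_KO, each by less than its interval can separate from 0. The ratio of Il6st to Il6ra was 2.58 and 2.54 in Ch25h_KO, against 2.34 and 2.34 in Ch25h_WT (two-sided exact permutation p = 0.333, the smallest possible).

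Il10ra, the chain that binds IL-10, was at 32.1 and 34.9 FPKM in the Ch25h_KO libraries, against 33.3 and 32.7 FPKM in the Ch25h_WT libraries. Its groups overlapped, with a difference of 0.02 (95% interval -0.15 to 0.19, limma adjusted p = 0.895), and the sign turned to -0.04 without Ch25h_KO replicate 2. Il10rb, which the receptors of other IL-10 family members and of type III interferons also use, was at 73.7 and 74.6 FPKM in the Ch25h_KO libraries, against 78.5 and 77.0 FPKM in the Ch25h_WT libraries (difference -0.07, 95% interval -0.20 to 0.07, limma adjusted p = 0.503). The intervals of the 4 receptor genes reach no further than -0.24 and 0.19, so a change of the size seen for Il10 or Il27 lies outside each of them.

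**Figure D3:**
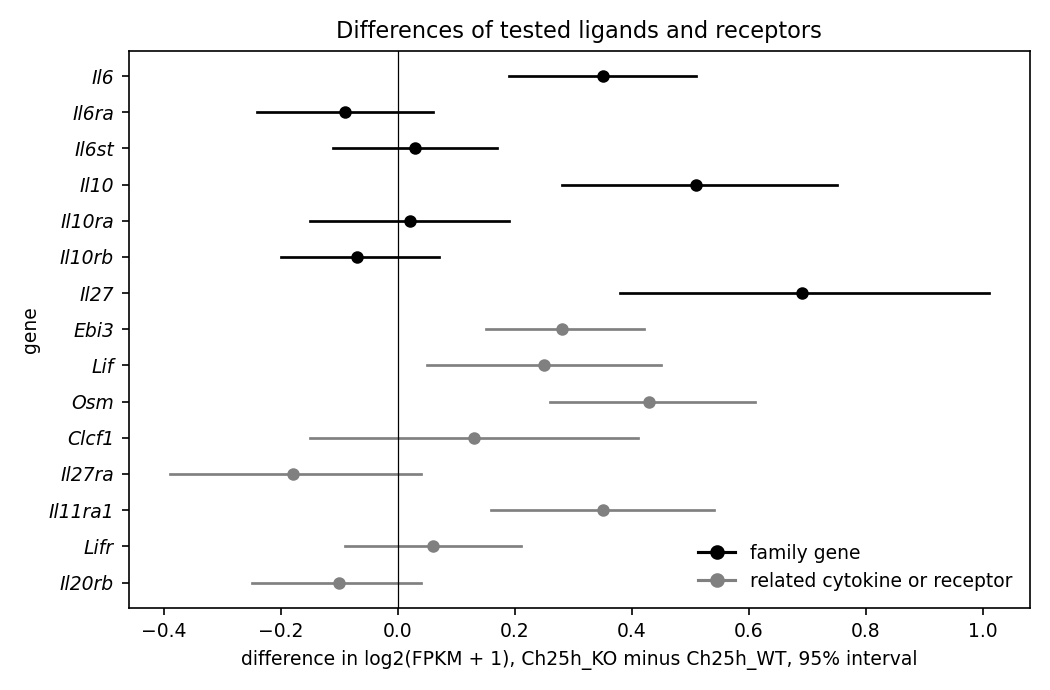
Difference in log2(FPKM + 1), Ch25h_KO minus Ch25h_WT, with limma 95% intervals for the 7 family genes tested (black) and the related cytokine and receptor genes tested on a locus of their own (grey). Il6, Il10 and Il27 and the related genes Ebi3, Lif, Osm and Il11ra1 have intervals above 0, before adjustment over all loci; the intervals of the 4 receptor members include 0.

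Counted by overlap, 4 of the 7 tested members had both Ch25h_KO values above both Ch25h_WT values (Il6, Il10, Il27 and, by a small margin, Il6st) and 2 had both below (Il6ra and Il10rb). Over all loci tested, 23.4% were apart in the first direction and 30.3% in the second, 53.7% together. Il10ra alone overlapped. The median difference of the 7 members was 0.03, against -0.01 over all loci tested.

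Ordered by mean level over the 4 libraries, the members ran from Il6 through Il10rb (76.0 FPKM), Il10 (45.2), Il10ra (33.3), Il6st (30.3), Il6ra (12.4), Il27 (10.3), Il12a (0.840) and Il12b (0.296) to Il23a (0.226). Of the neighbours, 4 pairs of neighbours overlap in their range over the libraries, namely Il6 with Il10rb, Il10 with Il10ra, Il6ra with Il27, and Il12b with Il23a. In the Ch25h_KO libraries Il6 was at 102 and 102 FPKM beside Il10rb at 73.7 and 74.6 FPKM. In the Ch25h_WT libraries Il6 was at 77.3 and 83.0 FPKM beside Il10rb at 78.5 and 77.0 FPKM. Il27 was near Il6ra in Ch25h_KO and below it in Ch25h_WT. The ratio of Il6 to Il10 was 2.01 and 1.84 in Ch25h_KO, against 2.23 and 2.10 in Ch25h_WT. Between the groups, this ratio was lower in both Ch25h_KO libraries (two-sided exact permutation p = 0.333, the smallest possible). Il6 was the higher of the pair in all 4 libraries.

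Loci with a profile most like that of Il6 and Il10 were sought among 6886 loci whose mean reached 5 FPKM, by the root mean square difference of centred log2(FPKM + 1) over the 4 libraries. The nearest to Il6 were Aspscr1 (0.010), Tlr8 (0.011) and Asns (0.011). Aspscr1 was at 20.4 and 20.7 FPKM in Ch25h_KO, against 15.6 and 16.6 FPKM in Ch25h_WT. Tlr8, an endosomal RNA receptor gene, was at 8.96 and 8.86 FPKM in Ch25h_KO, against 6.48 and 6.97 FPKM in Ch25h_WT. Asns was at 105 and 108 FPKM in Ch25h_KO, against 80.6 and 86.1 FPKM in Ch25h_WT. The nearest to Il10 were Vnn3 (0.036), H2-DMa (0.040) and Fcgr4 (0.044). How near a profile any gene would find among so many loci over 4 libraries was not computed, and shared control was not tested.

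Other cytokines and receptor chains of these families were compared in the same fit. This list and those below were chosen with earlier results of these data known, so their counts are descriptive only. Of 25 genes, 9 were tested, 11 had a mean above 0 and under 1 FPKM, and 5 were listed at 0 in every library (Cntfr, Il20, Il22, Il24 and Il20ra). None of the 9 passed the adjusted threshold with limma; at an unadjusted p under 0.05 there were 4, all higher in Ch25h_KO, where 20.9% of all loci tested were, 9.38% on the higher side. The locus of Cntf, one of the 9, also holds Zfp91, so its value is not read as Cntf; the other 8 had a median difference of 0.19, against 0.13 with that locus counted (left out after its values were seen) and -0.01 over all loci tested. Osm, which encodes oncostatin M, a member of the IL-6 family made by myeloid cells, was at 47.2 and 43.2 FPKM in the Ch25h_KO libraries, against 32.6 and 33.7 FPKM in the Ch25h_WT libraries (difference 0.43, limma adjusted p = 0.0966). Il11ra1, the IL-11 receptor chain, was at 19.0 and 17.5 FPKM in Ch25h_KO, against 14.6 and 13.6 FPKM in Ch25h_WT (difference 0.35, limma adjusted p = 0.116). Ebi3, given above with Il27, and Lif, the gene of leukemia inhibitory factor, were the others; Lif, named here after its values were seen, was at 3.09 and 3.59 FPKM in Ch25h_KO, against 2.61 and 2.67 FPKM in Ch25h_WT. The IL-27 receptor gene Il27ra was at 8.33 and 7.16 FPKM in Ch25h_KO, against 8.71 and 9.01 FPKM in Ch25h_WT (difference -0.18, limma adjusted p = 0.308). Its difference was -0.08 without Ch25h_KO replicate 2 and -0.27 without Ch25h_KO replicate 1. Il20rb differed by -0.10 (limma adjusted p = 0.352). The receptor genes for IL-12 and IL-23, Il12rb1, Il12rb2 and Il23r, were each at or under 0.556 FPKM in every library.

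The signalling genes that serve these receptors differed little. Of 16 tested kinase, STAT, feedback and shedding genes, 0 passed the adjusted threshold with limma, and at an unadjusted p under 0.05 there was 1 higher and 1 lower, against 9.38% higher and 11.5% lower over all loci tested. Stat3, the main transcription factor downstream of IL-6 and IL-10, was at 97.7 and 102 FPKM in Ch25h_KO, against 88.2 and 87.9 FPKM in Ch25h_WT (difference 0.18, limma adjusted p = 0.185). Adam17, a protease that sheds the IL-6 receptor from the cell surface, was at 56.8 and 57.3 FPKM in Ch25h_KO, against 66.7 and 62.7 FPKM in Ch25h_WT (difference -0.18, limma adjusted p = 0.202). Socs3, the inhibitor that STAT3 induces and that blocks IL-6 signalling, was at 327 and 315 FPKM in Ch25h_KO, against 304 and 309 FPKM in Ch25h_WT (difference 0.07, limma adjusted p = 0.527). Socs1 differed by 0.26 with a wide interval (-0.36 to 0.87), and its sign turned to -0.07 without Ch25h_WT replicate 1. Stat4 and Pias1 differed by -0.10 and -0.08 (limma adjusted p = 0.482 and 0.509).

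Genes that control the transcription or decay of these cytokine mRNAs were compared next. With this list too chosen after earlier results were known, its counts beside all loci are no test of a shift. None of 25 tested passed the adjusted threshold with limma, and at an unadjusted p under 0.05 there were 11 higher and 3 lower in Ch25h_KO, where 9.38% of all loci tested were higher and 11.5% lower, with a median difference of 0.09 against -0.01 over all loci tested. Zc3h12a, which encodes the nuclease Regnase-1 that degrades the mRNAs of Il6 and Il12b, was at 74.1 and 73.2 FPKM in Ch25h_KO, against 56.2 and 58.0 FPKM in Ch25h_WT (difference 0.36, limma adjusted p = 0.0883). Cebpd, a C/EBP factor that drives Il6, was at 28.7 and 25.4 FPKM in Ch25h_KO, against 20.2 and 19.8 FPKM in Ch25h_WT (difference 0.42, limma adjusted p = 0.110). Irf4 was at 17.8 and 18.3 FPKM in Ch25h_KO, against 14.3 and 14.6 FPKM in Ch25h_WT (difference 0.30, limma adjusted p = 0.104). On the lower side were Rel, the NF-kB subunit needed for Il12b, at 10.1 and 9.62 FPKM in Ch25h_KO, against 12.8 and 11.4 FPKM in Ch25h_WT (limma adjusted p = 0.158). Irf8, a factor that also drives Il12b, and Rc3h1, which encodes the RNA-binding protein Roquin-1, differed by -0.14 and -0.18 (limma adjusted p = 0.229 and 0.216).

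Genes of the macrophage response to IL-10 were compared in the same way. That list was likewise chosen with earlier results known, and no list was tested. Of 15 tested, 13 were above 0 and 2 below, where 45.7% of all loci tested were above 0 (4599 of 10074), and the median difference was 0.18 against -0.01 over all loci tested. None passed the adjusted threshold with limma; 8, all higher, had an unadjusted p under 0.05, where 9.38% of all loci tested did on the higher side. The list shares Bcl3, Nfil3 and Zfp36 with the regulators and Socs3 with the signalling genes, so the counts are not separate. Il1rn, the gene of the IL-1 receptor antagonist, was at 1414 and 1438 FPKM in Ch25h_KO, against 963 and 999 FPKM in Ch25h_WT (difference 0.54, 95% interval 0.40 to 0.68, limma adjusted p = 0.0522). Dusp1, a phosphatase that switches off p38 signalling, was at 342 and 346 FPKM in Ch25h_KO, against 242 and 242 FPKM in Ch25h_WT (difference 0.51, 95% interval 0.37 to 0.64, limma adjusted p = 0.0522). Ddit4, an inhibitor of mTOR signalling, was at 37.3 and 38.1 FPKM in Ch25h_KO, against 30.6 and 27.7 FPKM in Ch25h_WT (limma adjusted p = 0.111). The heme oxygenase gene Hmox1 was at 2347 and 2335 FPKM in Ch25h_KO, against 2398 and 2478 FPKM in Ch25h_WT, and Etv3 differed by -0.01 (limma adjusted p = 0.571 and 0.956). Many of these genes respond to other stimuli as well.

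**Figure D4:**
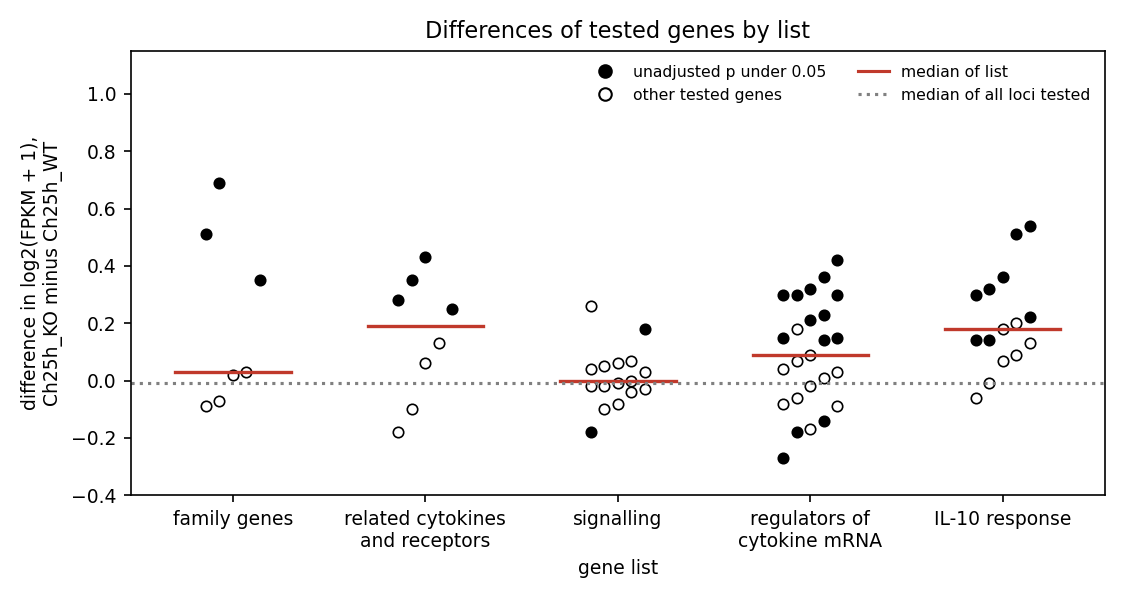
Difference in log2(FPKM + 1), Ch25h_KO minus Ch25h_WT, of each tested gene in the family and in 4 related lists; filled points have an unadjusted p under 0.05, red bars are list medians and the dotted line is the median of all loci tested. The medians of the IL-10 response list (0.18) and of the related cytokines and receptors (0.19, the locus shared by Cntf and Zfp91 left out) lie above the dotted line at -0.01, and that of the signalling genes lies on 0. The lists were chosen with earlier results of these data known, and no list was tested.

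With the trend and robust options of limma, 7.80% of all loci tested passed the adjusted threshold and 3 of the 7 members did, namely Il6 (adjusted p = 0.003), Il10 (adjusted p = 0.00533) and Il27 (adjusted p = 0.00822). The differences of the 3 genes are the same in both fits. Over the other 9 alternative settings their adjusted p lay above 0.05.

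Markers of other cells also differed in level between the groups, and their part in the results was not tested. The 9 mast cell and basophil markers summed to 158 and 161 FPKM in Ch25h_KO, against 226 and 231 FPKM in Ch25h_WT, with 5 of 7 tested lower at an unadjusted p under 0.05. The 8 measured of 9 neutrophil markers summed to 117 and 117 FPKM in Ch25h_KO, against 72.3 and 83.1 FPKM in Ch25h_WT; most of that was S100a8, while 6 of the 8 had a mean under 1 FPKM. The 6 monocyte markers summed to 115 and 120 FPKM in Ch25h_KO, against 104 and 103 FPKM in Ch25h_WT, and Ly6c2, at 14.3 and 17.3 FPKM in Ch25h_KO, against 3.12 and 2.70 FPKM in Ch25h_WT, passed the adjusted threshold. The 8 dendritic cell markers summed to 53.4 and 49.7 FPKM in Ch25h_KO, against 44.8 and 44.1 FPKM in Ch25h_WT. Most of that was Cd209a and Ccr7, the first at 27.1 and 23.8 FPKM in Ch25h_KO, against 19.8 and 18.9 FPKM in Ch25h_WT. Only 3 of these markers were tested, with 2 above 0 in the difference and 1 below. The lower one, Zbtb46, was at 1.79 and 1.48 FPKM in Ch25h_KO, against 2.07 and 1.52 FPKM in Ch25h_WT. The 9 T and NK cell markers summed to 4.86 and 6.58 FPKM in Ch25h_KO, against 4.10 and 4.91 FPKM in Ch25h_WT, and the 8 mesothelial and stromal markers to 8.29 and 7.76 FPKM in Ch25h_KO, against 6.48 and 6.35 FPKM in Ch25h_WT. Of those 8, only 2 were tested, and at an unadjusted p under 0.05 Dcn was higher and Pecam1 lower: Dcn was at 2.47 and 1.53 FPKM in Ch25h_KO, against 0.712 and 0.452 FPKM in Ch25h_WT, and Pecam1 at 4.12 and 4.42 FPKM in Ch25h_KO, against 5.01 and 5.11 FPKM in Ch25h_WT. The 4 eosinophil markers summed to under 1 FPKM in every library, with Epx listed at 0. The 8 macrophage markers summed to 28801 and 28102 FPKM in Ch25h_KO, against 26726 and 27673 FPKM in Ch25h_WT. Of these 8, 2 were above 0 in the difference and 6 below. The higher pair, both at an unadjusted p under 0.05, were Fcgr1 and Cd14, the second at 6870 and 6751 FPKM in Ch25h_KO, against 5178 and 5288 FPKM in Ch25h_WT. The defining marker Adgre1 was at 381 and 388 FPKM in Ch25h_KO, against 418 and 425 FPKM in Ch25h_WT, and Csf1r at 274 and 291 FPKM in Ch25h_KO, against 306 and 316 FPKM in Ch25h_WT.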

How the data were processed

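The authors deposited 1 table of values per locus for 4 RNA-seq libraries, which fits FPKM in its range, decimals and Cufflinks locus identifiers, while its header names no unit. Per the submitters' processing notes, bcl2fastq, TopHat2 2.0.14, Cufflinks 2.2.1 and mm9 were used; their settings, the annotation and strandedness are not stated there. Columns of other samples numbered 0. Lines of the same locus (24192 lines) were joined into 23735 loci. Values were moved to log2(FPKM + 1), a scale that understates changes of low genes, and fitted by genotype alone in limma 3.58.1 (R 4.3.3). The 10074 loci whose mean reached 1 FPKM entered, and p-values were adjusted over all of them by Benjamini-Hochberg. The fit was tested on simulated data, with a pass set on direction and on changes larger than those of the members. That pass does not tell how often changes of the members' size are found. Ratios of FPKM were compared by exact permutation. Relative depth came from the most common ratio between libraries among values under 0.5 FPKM. After scaling by it, 95.8% of 3355 loci under 0.2 FPKM held whole multiples (tolerance 0.01 fragments, widened in proportion above 4). A locus above 0 in a single library passes that check by construction, and no chance rate was computed. Depth in fragments used GENCODE vM21 transcript lengths of 702 loci. Symbols absent from the table were sought among RefSeq synonyms; Ighm and Ly6g were not matched. The members and lists were chosen with earlier results of these data known. From each list of related genes the text names up to 3 higher and 3 lower tested genes with the smallest p. Alternatives were the pseudocount, the filter, median scaling, trend and robust options, the replicate number as a block, and each library left out.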

Additional observations from a re-analysis of the deposited data

How the results depend on the processing

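Il6, Il10 and Il27 stayed on the higher side in Ch25h_KO under all 10 alternatives. Without each library in turn their differences in log2(FPKM + 1) ran from 0.30 to 0.40, 0.42 to 0.61 and 0.54 to 0.84. They passed the adjusted threshold with the trend and robust options alone, at the same differences of 0.35, 0.51 and 0.69. That setting took the count of all loci passing from 44 to 786, of the 7 tested members from 0 to 3, and of the related cytokine and receptor, signalling, regulator and IL-10 response genes from 0 to 3, 1, 9 and 7. With a mean of at least 5 FPKM required, 175 loci passed, among them 1 related cytokine gene, 1 regulator and 2 IL-10 response genes; median scaling also gave 2 of the last. With no filter 18 loci passed, and with the pseudocount of 0.1 FPKM 30. The replicate block left 6 loci and no member. Deviations of same-numbered libraries had a correlation of 0.0123 across loci, which does not tell whether particular genes share a replicate effect. Under the block the unadjusted limma p fell for Il10 (0.00293 to 0.00125) and Il27 (0.00277 to 0.000746). For Il6 it rose from 0.00279 to 0.00596. Leaving out each library gave 16 to 21 loci (16 without either Ch25h_KO library, 17 and 21 without Ch25h_WT replicates 1 and 2), and 1321 to 1701 at an unadjusted p under 0.05, against 2107 with all 4. Without each library in turn Il10ra ran from -0.04 (without Ch25h_KO replicate 2) to 0.08 and Socs1 from -0.07 (without Ch25h_WT replicate 1) to 0.59. Etv3 turned to 0.01 with median scaling and to 0.02 without Ch25h_KO replicate 1 or Ch25h_WT replicate 2. Il12b differed by -0.83 with the pseudocount of 0.1, against -0.20 with 1. The causes were not tested. Depth of 1 to 11 fragments limits Il12b and Il23a, and 2 libraries a group limit every test.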
